A study of Mus musculus with 14 samples.

Results

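The subject here is 6 genes, Npc1l1, Abca1, Abcg5, Abcg8, Scarb1 and Soat2, the transporters that move sterols across the intestinal epithelium and the enzyme that esterifies cholesterol inside it. They were chosen by symbol, 6 of the 46855 gene symbols of the deposited expression table that were used, and all 6 passed the filter on low values in every comparison. RNA was measured in whole ileum, the last stretch of the small intestine, of C57BL/6N mice in 14 libraries. The groups were 4 untreated mice at postnatal day 14 (P14), 4 untreated mice at day 24 (P24), 3 mice injected into the abdomen with 100 µL of phosphate-buffered saline (PBS) and 3 injected with recombinant mouse IL-22 (rmIl22, 0.1 µg per g of body weight in 100 µL PBS). Injections were given at days 14 and 15 and these mice were killed at day 16, although the age field of the labels reads 14 for the PBS mice and 24 for the rmIl22 mice. The labels give no genetic change in any group and call the replicates biological. The series concerns weaning and IL-22, a cytokine that acts on epithelial cells.

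Cholesterol from food and bile enters the enterocyte through NPC1L1, a brush border protein that is the target of the drug ezetimibe. SOAT2 in the endoplasmic reticulum joins cholesterol to a fatty acid, and the ester is packed into chylomicrons. ABCG5 and ABCG8 form a heterodimer in the apical membrane that returns sterols, plant sterols above all, to the lumen, while ABCA1 on the basolateral side loads cholesterol onto apolipoprotein A-I to make HDL. Scarb1 encodes SR-BI, a receptor that exchanges cholesterol with HDL. Oxysterols activate the nuclear receptors LXRα and LXRβ, and Abca1, Abcg5 and Abcg8 are textbook LXR target genes. A shortage of cholesterol activates SREBP2, which drives cholesterol synthesis and is also known to act on Npc1l1.

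Abcg5 and Abcg8 are shown first by sequence, because a start site of each lies head to head with the other's and their RNA levels moved together in the results that follow. In the RefSeq promoter table for GRCm38.p6, which covers 250 bases before to 50 after a start site, 4 of the 6 genes matched (Npc1l1, Abca1, Abcg5 and Abcg8). The table lists 1 start of Abcg5 (minus strand) and a start of Abcg8 (plus strand) that are 110 bases apart, with 109 bases between them, chr17:84683012-84683120. It also lists an Abcg8 start at position 84676302, inside Abcg5, which is where the annotated Abcg8 gene begins, so the shared stretch does not precede all of Abcg8, and the window of that start held none of the motifs searched. The stretch upstream of Npc1l1, the gene that moved the other way with age, is given for contrast (chr11:6230246-6230495, minus strand). Both are written 5′ to 3′ on the minus strand, in lower case, with capitals marking AGATAA, known to be bound by GATA factors, and TATAAA, known as the TATA box.
Abcg5 and Abcg8 shared stretch: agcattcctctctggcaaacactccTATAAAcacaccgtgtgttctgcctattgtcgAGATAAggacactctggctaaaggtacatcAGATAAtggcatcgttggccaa
Npc1l1 upstream stretch: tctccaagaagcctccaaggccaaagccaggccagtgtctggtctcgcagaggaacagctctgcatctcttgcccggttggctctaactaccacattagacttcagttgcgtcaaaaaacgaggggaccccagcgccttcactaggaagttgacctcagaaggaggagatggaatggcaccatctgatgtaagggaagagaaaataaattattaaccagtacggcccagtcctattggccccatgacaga
AGATAA begins 52 and 22 bases before the Abcg5 start, and a match on the other strand begins 12 bases after it. The same 3 matches lie 127, 93 and 63 bases before the Abcg8 start at the end of the shared stretch. TATAAA begins 84 bases before the Abcg5 start and, on the other strand, 31 bases before that of Abcg8. AGATAA was present on either strand in 11.2% of 32851 promoter windows of 300 bases. A cut of 3 or more matches, the number found here, was met by 35 of them (0.107%), windows of these genes included. TATAAA was present in 13.6%. The Npc1l1 window held none of the 10 motifs searched on both strands, which besides those were CACGTG (7.15% of windows), GGGCGG (35.7%), TTCNNNGAA (8.3%), TCAAGGTCA (0.423%), the SREBP element (0.0913%), the HNF1 motif (0.00913%), the HNF4 repeat (0.0396%) and the DR4 repeat that LXR binds (0.0152%). No matched letters overlapped another motif in the shared stretch. Only exact matches to each motif were counted, and several motifs are so rare over all windows that their absence sets no gene apart. A match or its absence describes only the letters in these windows.

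The libraries held 35.6 to 46.5 M gene-assigned reads each, recovered from the deposited TPM (abundance per gene, corrected for its length and for the total of the library). The members had 301 reads (Scarb1) to 27804 reads (Npc1l1) in a library. At P24 against P14 the log2 fold change of the median gene was -0.25, and 25.1% of the changed genes were higher there, or 51.1% after TPM were scaled to equal medians, so values relative to the median gene are given beside the deposited scale. Libraries stood apart within groups. Gata4, a transcription factor of the upper small intestine that is nearly absent from adult ileum, stood at 6.57 and 7.51 TPM in P14 libraries 4 and 5, at 10.8 to 17.4 TPM in the PBS libraries and at 15.8 TPM in rmIl22 library 2, and at or below 1.36 TPM in the other 8. Xist, expressed in females, was above 28 TPM in P14 libraries 4 and 5, P24 libraries 2, 6 and 8 and rmIl22 libraries 2 and 3, and at most 0.16 TPM elsewhere, so the PBS group held no such library. The labels state neither sex nor the position of the tissue along the ileum. The enterocyte gene Vil1 had 477 to 1356 TPM and Epcam, the epithelial adhesion gene, 1986 to 2746 TPM over the libraries. Summed TPM of 10 enterocyte markers ran from 6512 to 8479 at P14, 16666 to 21889 at P24, 10025 to 11930 with PBS and 8422 to 11767 with rmIl22.

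Between P14 and P24 the uptake gene Npc1l1 rose, the efflux genes Abcg5 and Abcg8 fell, Abca1 fell on the deposited scale only, and Scarb1 and Soat2 did not pass the test. Thus 4 of 6 members changed, 1 up and 3 down, where 58.3% of all 14651 genes tested changed, 14.6% up and 43.7% down. The members' median log2 fold change was -0.33. In whole tissue, fewer cells of a type and less RNA per cell cannot be told apart.

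**Figure D1:**
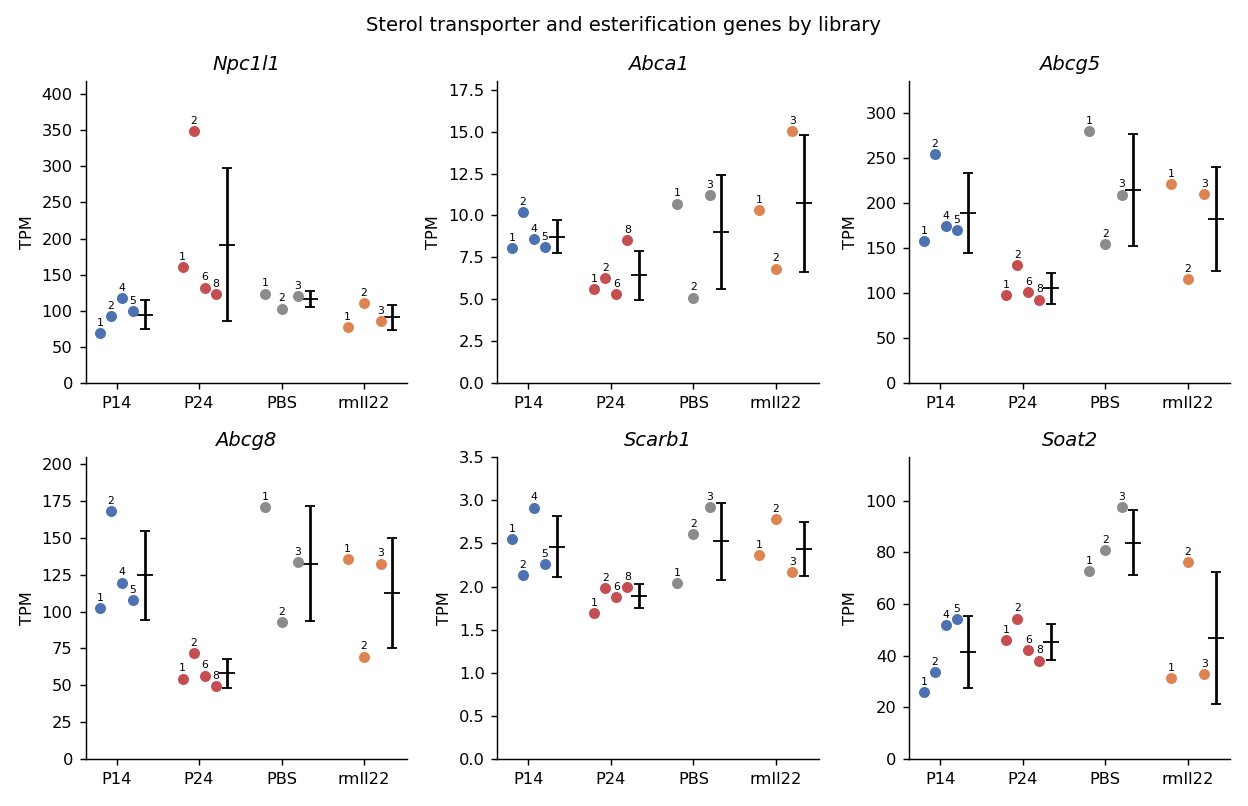
TPM of the 6 genes (vertical axis, from 0, a separate scale for each gene) in each library of the 4 groups. Points are libraries with their numbers, and the bars beside them give the mean ± SD (n = 4, 4, 3 and 3). Within each group Abcg5 and Abcg8 show the same order of libraries, P24 library 2 stands alone for Npc1l1 at 348 TPM, and for Soat2 rmIl22 library 2 stands with the PBS libraries.

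Npc1l1 (ENSMUSG00000020447.5, mm10 chromosome 11, 6211013 to 6230143, minus strand, protein coding) had 69.5, 93.3, 118 and 99.4 TPM in P14 libraries 1, 2, 4 and 5. The P24 libraries 1, 2, 6 and 8 had 161, 348, 132 and 124 TPM. No P24 value reached down into the P14 range, and the ages did not overlap in 52.4% of all genes tested. P24 library 2 was more than 2 times any other. The means were 95.02 ± 20.0 and 191 ± 106 TPM (SD, n = 4 each), a log2 fold change (the difference between group means of log2(TPM + 1), as for all fitted differences here) of 0.89 (SE 0.28, adjusted p = 0.0182). Relative to the median gene it was 1.198 (adjusted p = 0.00761). Without P24 library 2 the rise was 0.56 (adjusted p = 0.0137), and with no filter on low values the adjusted p was 0.0678.

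Abcg5 (ENSMUSG00000040505.13, chromosome 17, 84658234 to 84683011, minus strand, protein coding) had 158, 254, 174 and 170.1 TPM at P14. At P24 it had 97.3, 131, 101 and 92.6 TPM in the same order of libraries. Every P24 value was below every P14 value, where 52.4% of all genes tested did not overlap between the ages. Library 2 was the highest within each age. The mean fell from 189 ± 44.2 to 106 ± 17.3 TPM (log2 difference -0.82, SE 0.16, adjusted p = 9.34e-04). Relative to the median gene the change was -0.52 (adjusted p = 0.0225).

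Abcg8 (ENSMUSG00000024254.15, chromosome 17, 84676302 to 84700333, plus strand, protein coding), the other subunit gene, had 103, 169, 119.7 and 108 TPM at P14. The P24 libraries had 54.6, 72.1, 56.6 and 49.4 TPM. Again the ages did not overlap, as in 52.4% of all genes tested, and library 2 was highest within each. The mean fell from 125 ± 30.1 to 58.2 ± 9.76 TPM (log2 difference -1.07, SE 0.16, adjusted p = 1.66e-04), or by 0.77 on the log2 scale relative to the median gene (adjusted p = 0.00298). Abcg5 and Abcg8 passed in all 18 alternatives tried for the age comparison.

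Both subunit genes fell, but not by the same amount. Abcg5 TPM divided by Abcg8 TPM ran from 1.46 to 1.57 at P14 and from 1.78 to 1.88 at P24, with no overlap. The difference of the mean log2 ratio was 0.26, and a two-sided exact permutation test gave p = 0.0286, the smallest that 4 against 4 libraries allow. Among injected mice the ratio was 1.57 to 1.66 with PBS and 1.58 to 1.67 with rmIl22 (exact permutation p = 0.90, where 3 against 3 cannot go below 0.1). The genes overlap on opposite strands with 82 exonic bases in common, of 2712 in Abcg5 and 3749 in Abcg8. The strand setting of the counting is not given in the sources used here. Reads of those bases may thus be assigned to either gene.

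Across all 14 libraries Abcg5 and Abcg8 were close to proportional, with Pearson r = 0.99 on log2(TPM + 1) and r = 0.995 after the group means were removed. This is a description over 14 libraries that share group and scaling. The order of group means was the same for both genes: P24 lowest, then rmIl22, P14 and PBS. Neighbouring groups in that order overlapped. Their next neighbours by likeness among 15702 genes were Slc26a1, a sulfate transporter gene (r = 0.95 with Abcg5 and 0.96 with Abcg8), Sgms2, a sphingomyelin synthase gene (0.95 with Abcg5), and Cpm, a carboxypeptidase gene (0.96 with Abcg8).

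**Figure D2:**
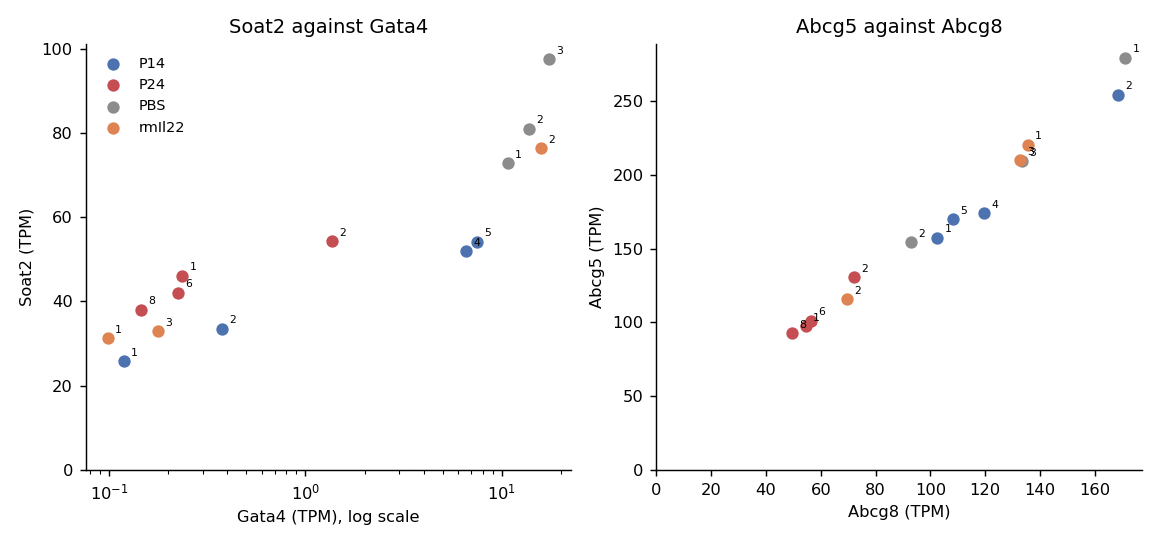
Left, Soat2 TPM (from 0) against Gata4 TPM (log axis). Right, Abcg5 TPM against Abcg8 TPM, both from 0. Each point is 1 of 14 libraries, coloured by group and numbered, and Soat2 was highest in the 3 PBS libraries and rmIl22 library 2, which also had the highest Gata4, while Abcg5 and Abcg8 fell close to a line.

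Abca1 (ENSMUSG00000015243.4, chromosome 4, 53030787 to 53159895, minus strand, protein coding) had 8.04, 10.2, 8.57 and 8.14 TPM at P14. The P24 values were 5.61, 6.25, 5.32 and 8.52 TPM. Library 8 at P24 reached into the P14 range, and the other P24 libraries lay below it. The log2 fold change was -0.40 (SE 0.14, adjusted p = 0.0269), but relative to the median gene it was -0.13 (adjusted p = 0.332). Quantile normalisation (adjusted p = 0.38) and voom on recovered reads (0.284) also lost the call, as did 10 of 18 alternatives in all. Abca1 is broadly expressed, macrophages included: summed TPM of 11 macrophage markers ran from 292 to 395 at P14 and 311 to 477 at P24, with none at 0, and their part in the Abca1 values was not tested.

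Scarb1 (ENSMUSG00000037936.15, chromosome 5, 125277087 to 125341094, minus strand, protein coding) was the lowest of the 6 genes. It had 2.13 to 2.92 TPM at P14 and 1.70 to 2.00 TPM at P24, from 301 to 513 reads over all groups. The ages did not overlap, as in 52.4% of all genes tested, yet the change did not pass (2.46 ± 0.349 against 1.89 ± 0.139 TPM, log2 fold change -0.26, 95% interval -0.52 to 0.0016, adjusted p = 0.0809). Relative to the median gene it was -0.05. Means with PBS and rmIl22 were 2.52 ± 0.446 and 2.44 ± 0.314 TPM.

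Soat2 (ENSMUSG00000023045.13, chromosome 15, 102150526 to 102163469, plus strand, protein coding) had 25.8, 33.5, 52.0 and 54.2 TPM at P14. At P24 it had 46.1, 54.3, 42.0 and 38.1 TPM. The ages overlapped, and P14 libraries 4 and 5, those with Gata4, were in the upper part of the P24 range while libraries 1 and 2 were below it. The log2 fold change was 0.17 (95% interval -0.29 to 0.64, adjusted p = 0.499). In a fit without P14 libraries 4 and 5 it was 0.59. These were left out after the values were seen and are the P14 libraries with the highest Soat2 and the only ones there with Xist, so that value is a description and no test. In the same fit Npc1l1 stood at 1.10 and Abca1 at -0.46 (adjusted p = 0.061).

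**Figure D3:**
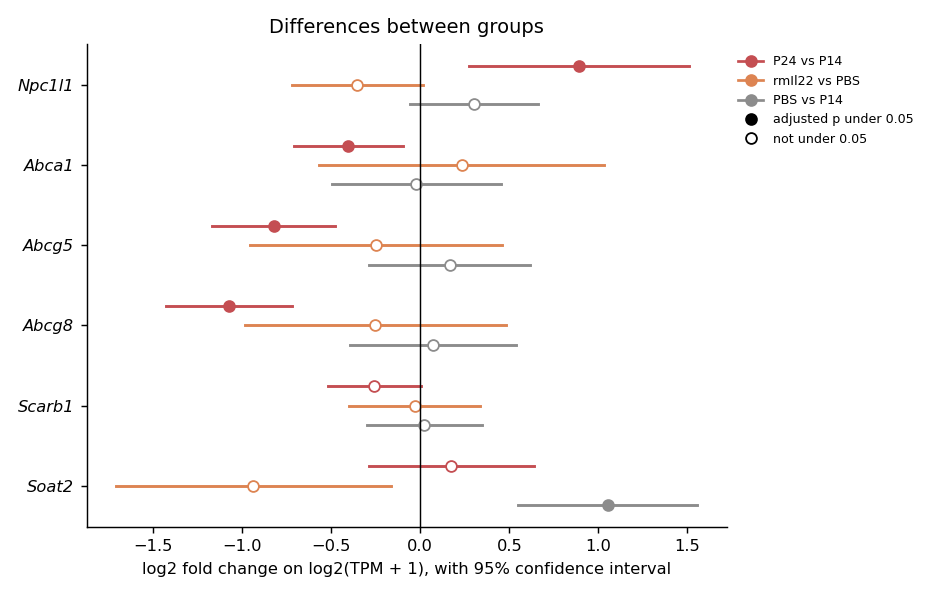
Log2 fold change on log2(TPM + 1) (horizontal axis) with its 95% confidence interval for the 6 genes in 3 comparisons. Filled points have an adjusted p under 0.05: Npc1l1 up and Abca1, Abcg5 and Abcg8 down at P24 against P14, Soat2 up with PBS against P14, and none with rmIl22 against PBS.

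The authors' deposited table for P24 against P14 gave Npc1l1 a log2 fold change of 1.34 (adjusted p = 1.40e-05), Abcg5 -0.52 (0.0467) and Abcg8 -0.77 (0.0022). In the authors' deposited table Abca1 stood at -0.14 (adjusted p = 0.682), Scarb1 at -0.07 (0.769) and Soat2 at 0.44 (0.254). Those values lie near the ones relative to the median gene.

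The IL-22 comparison asked what the cytokine changes before weaning, and limma called 0 of the 6 members with rmIl22 against PBS. Over all 14456 genes tested 2.69% changed, 0.443% up and 2.25% down. At an unadjusted p under 0.05 there was 1 member, Soat2, where 15.5% of all genes stood, and voom on recovered reads called 0. The authors' deposited table of this comparison lists 1102 genes, none of them a member, and its highest adjusted p is 0.00999, so it says nothing of members above that.

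Soat2 had 72.8, 81.0 and 97.5 TPM in PBS libraries 1 to 3. With rmIl22 it had 31.3, 76.3 and 33.0 TPM. Libraries 1 and 3 were below every PBS library and library 2 was inside the PBS range. The means were 83.7 ± 12.6 and 46.9 ± 25.5 TPM (n = 3 each), with a log2 fold change of -0.94 (95% interval -1.71 to -0.17, unadjusted p = 0.0236, adjusted p = 0.221). Without rmIl22 library 2, the highest of its group, it was -1.34, and with library 2 as the only rmIl22 library it was -0.12. Neither value is given with a test. Library 2 was picked out after the values were seen, and alone it is an arm of 1 library. Gata4 was 0.10, 15.8 and 0.18 TPM in rmIl22 libraries 1 to 3, and the summed TPM of 7 markers of the upper small intestine was 3342, 23721 and 3780, against 13402 to 19944 with PBS. Most of each sum was 1 apolipoprotein gene, Apoa4, at 3066 to 21527 TPM with rmIl22 and 12235 to 16883 TPM with PBS. Rbp2 stood at 270, 1476 and 301 TPM in rmIl22 libraries 1 to 3. Cybrd1 differed little (mean 3.25 TPM against 3.88 with PBS), and Onecut2 and Cyp2b10 were nearly absent. No PBS library had Xist, while rmIl22 libraries 2 and 3 had it at 28.4 and 53.5 TPM. Which of IL-22, the position of the tissue and sex goes with Soat2 cannot be told apart in these libraries. Over all 14 libraries Soat2 and Gata4 had r = 0.91, and 0.98 after the group means were removed. For Abcg5 and Abcg8, whose shared stretch holds AGATAA, r with Gata4 was 0.23 and 0.25, and -0.53 and -0.52 after removal. For Npc1l1, Abca1 and Scarb1 it was 0.06, -0.06 and 0.62, and 0.56, -0.45 and 0.51 after removal.

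Abcg5 had 279, 154 and 209 TPM with PBS and 220.5, 116 and 210.1 TPM with rmIl22. Abcg8 had 171, 92.8 and 134 TPM and 136, 69.5 and 133 TPM. In both genes the lowest value belonged to rmIl22 library 2 and the next to PBS library 2, and the groups overlapped. The log2 fold changes were -0.25 for each (95% intervals -0.96 to 0.46 and -0.99 to 0.48), with adjusted p = 0.80 and 0.809. With rmIl22 library 2, the lowest, as the only rmIl22 library they were -0.84 and -0.88, again with no test, and without it 0.05 and 0.06.

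Abca1 was also lowest in library 2 of each group, with 10.7, 5.10 and 11.2 TPM with PBS and 10.3, 6.83 and 15.0 TPM with rmIl22. Its log2 fold change was 0.23 (95% interval -0.57 to 1.03, adjusted p = 0.842). Low values in PBS library 2 and rmIl22 library 2 were thus shared by the 3 members that are LXR targets. Abcg1, another LXR target, was also lowest there, at 4.08 TPM in PBS library 2 and 3.58 TPM in rmIl22 library 2. Abcg1 was picked after values were seen, and the other genes of LXR sensing, listed below, were not compared library by library. Over 14 libraries Abcg1 had r = 0.83 with Abca1, 0.91 with Abcg5 and 0.92 with Abcg8, out of 45 pairs computed. Mylip, also an LXR target, had a lower r with them, at 0.66, 0.57 and 0.55.

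Npc1l1 had 124, 103 and 121 TPM with PBS and 77.1, 110.4 and 86.3 TPM with rmIl22, and the groups overlapped through library 2 of each. The log2 fold change was -0.35 (95% interval -0.72 to 0.016, adjusted p = 0.349). Without rmIl22 library 2, the highest of its group, it was -0.50, again with no test. Scarb1 had 2.04 to 2.92 TPM with PBS and 2.17 to 2.79 TPM with rmIl22 (log2 fold change -0.03, 95% interval -0.40 to 0.34).

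**Figure D4:**
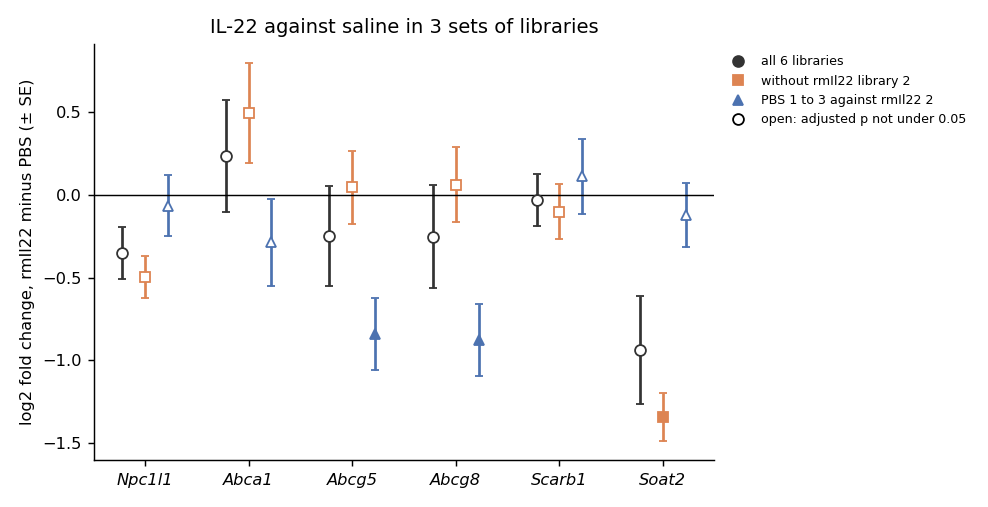
Log2 fold change of rmIl22 minus PBS (vertical axis, ± SE) for the 6 genes in 3 sets of libraries: all 6, without rmIl22 library 2, and rmIl22 library 2 alone against the 3 PBS libraries (here the SE assumes the lone library to vary like the others). Filled points mark an adjusted p under 0.05 in the fit drawn. In the sets without library 2 or with it alone the fill is no test. That library was picked out after the values were seen, and alone it is an arm of 1 library. Soat2 stood at -1.34 without library 2 and at -0.12 with it alone. Abcg5 and Abcg8 stood near 0 without it and at -0.84 and -0.88 with it alone.

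The age and IL-22 effects were set against each other in a fit of all 14 libraries. There 23.8% of 15702 genes differed, 17.3% with a more positive effect of IL-22 and 6.51% with a more negative one. After TPM were scaled to equal medians, 2036 genes had a more positive effect of IL-22 and 2215 a more negative one. Among the members 1 of 6 differed. Npc1l1, at 0.89 for age and -0.35 for IL-22, had a difference of -1.24 (SE 0.41, adjusted p = 0.0408). That call was lost in 9 of 21 alternatives, with an adjusted p of up to 0.088. Soat2 stood at -1.11 (adjusted p = 0.0681) and Abcg8 at 0.82 (adjusted p = 0.109). Relative to the median gene Npc1l1 stood at -1.49 (adjusted p = 0.0213) and Soat2 at -1.35 (adjusted p = 0.0445). Abcg8 then stood at 0.58 (adjusted p = 0.233) and Abcg5 at 0.33 (adjusted p = 0.501). Without rmIl22 library 2 Abcg5 stood at 0.87, Abcg8 at 1.13 and Soat2 at -1.52. That library had the lowest Abcg5 and Abcg8 and the highest Soat2 of its group, so these values are a description and no test.

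The saline mice, 2 days older than the P14 mice and injected, were also compared with them. This comparison shares the P14 libraries with the age comparison and the PBS libraries with the IL-22 comparison. Soat2 was the 1 member of 6 called, where 4.33% of 14782 genes changed, 2.92% up and 1.41% down. Its PBS values of 72.8 to 97.5 TPM lay above all P14 values of 25.8 to 54.2 TPM (log2 difference 1.05, SE 0.23, adjusted p = 0.0261). The 2 groups did not overlap in 16.6% of all genes tested. Without PBS library 3 the adjusted p was 0.0814, and no filter (0.151), quantile normalisation (0.0682) and the fit of all libraries (0.08) also lost the call. With a term for sex read from Xist the rise was 1.47. No PBS library had Xist, so that rise sets PBS against P14 libraries 1 and 2, those with the lowest Soat2. It is a description and no test. Against P14 libraries 4 and 5 alone, the ones with Gata4, the rise was 0.64. Since these are also the P14 libraries with Xist (47.0 and 40.5 TPM) while no PBS library had it, that subset differs in sex as well. Age, injection, position of the tissue and sex cannot be told apart here. The other members stood at 0.30 (Npc1l1), -0.02 (Abca1), 0.17 (Abcg5), 0.07 (Abcg8) and 0.02 (Scarb1), none of them called.

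Of 12 genes of LXR sensing 0 rose and 5 fell at P24, a share near the 43.7% that fell over all genes. Their median log2 fold change was -0.22 against -0.25 over all genes, and relative to the median gene 1 rose and 3 fell. On that scale 4323 of all 14651 genes tested rose and 4139 fell, which holds for the lists below too. Smpdl3a, a sterol-responsive phosphodiesterase gene, fell from 489 ± 73.9 to 113 ± 10.5 TPM (log2 difference -2.10, adjusted p = 6.70e-08), and Srebf1, which encodes the lipogenic factor SREBP1, fell from 46.9 ± 11.8 to 18.9 ± 2.96 TPM (-1.24, adjusted p = 9.05e-05). Abcg1 fell by 0.75 on the log2 scale (adjusted p = 7.76e-04). The receptor gene Nr1h3 (LXRα) did not pass (34.8 ± 2.38 and 30.8 ± 2.62 TPM, adjusted p = 0.136), nor did Nr1h2 (LXRβ, -0.12). With rmIl22 limma called 0 of the 12 and voom 0, with 2 at an unadjusted p under 0.05. Such a p was reached by 15.5% of all genes, the share to hold beside these counts here and below.

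Cholesterol synthesis and SREBP2 genes went the other way: 19 of 25 rose and 0 fell, where 14.6% and 43.7% of all genes did. Their median was 0.86, and 21 rose relative to the median gene. Sqle, the squalene epoxidase gene, rose from 14.0 ± 3.4 to 86.5 ± 20.2 TPM (log2 difference 2.55, adjusted p = 8.68e-07), and Hmgcs1, which makes the HMG-CoA used by the pathway, from 108 ± 25.2 to 385 ± 74.7 TPM (1.84, adjusted p = 8.25e-06). Srebf2, the gene of SREBP2 itself, rose by 0.51. With rmIl22 limma called 0 of the 25 and voom 0, with 9 at an unadjusted p under 0.05, at a median of 0.46 against -0.05 over all genes, and Sqle stood at 34.6 ± 8.84 TPM against 16.4 ± 8.32 TPM with PBS (adjusted p = 0.157).

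**Figure D5:**
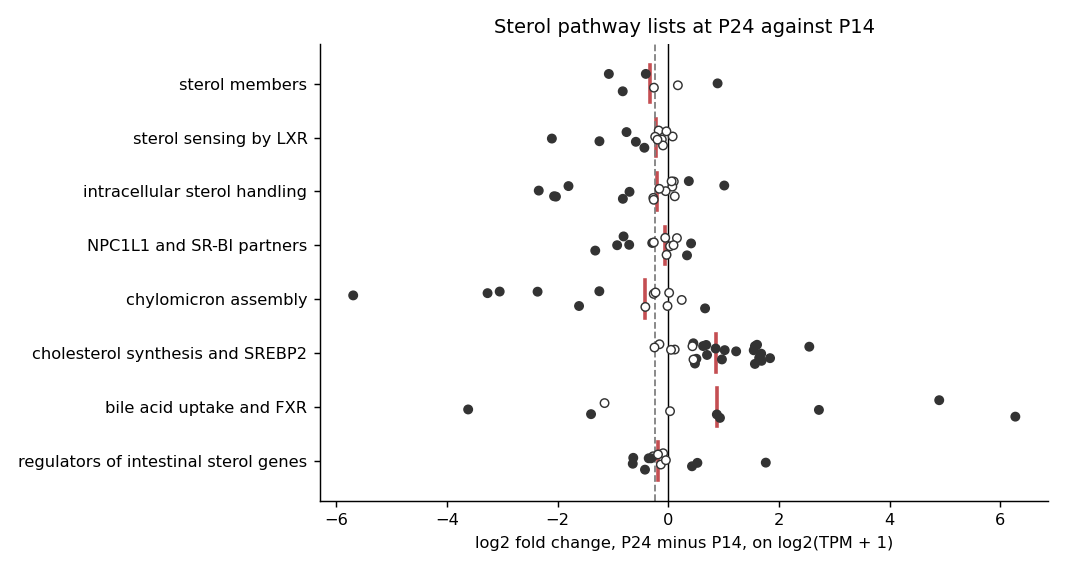
Log2 fold change at P24 against P14 (horizontal axis) of each tested gene of the 6 members and 7 lists of sterol pathway genes. Filled points have an adjusted p under 0.05, red bars are list medians and the dashed line is the median of all genes (-0.25); 19 of 25 cholesterol synthesis genes are called and higher.

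Of 16 intracellular sterol handling genes 2 rose and 6 fell at P24 (3 and 6 relative to the median gene). On the deposited scale those shares lay near the 14.6% and 43.7% of all genes. Soat1, the sterol esterification enzyme gene of most other tissues, fell from 29.7 ± 5.15 to 6.27 ± 0.28 TPM (log2 difference -2.06, adjusted p = 8.68e-08), while Soat2 did not pass. Soat2 was thus 1.39 times Soat1 in mean TPM at P14 and 7.199 times at P24. Stard5, a cytosolic sterol carrier gene, fell by 2.34 on the log2 scale. The lysosomal sterol genes Npc2 (-2.03) and Lipa (-1.80) fell too, and Npc1 (-0.27, adjusted p = 0.085) did not pass. The 2 that rose were Scp2, a peroxisomal sterol carrier gene (0.37), and Mlxipl, which encodes the carbohydrate-responsive factor ChREBP rather than a sterol carrier (1.01). With rmIl22, Gramd1b, which moves cholesterol from the plasma membrane to the endoplasmic reticulum, fell from 33.6 ± 4.38 to 16.5 ± 3.52 TPM (log2 difference -0.996, adjusted p = 0.0304), the 1 of 16 called. That call was lost in 11 of 17 alternatives, the scaling to equal medians among them (adjusted p = 0.0649).

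Of 13 partners of NPC1L1 and SR-BI in endocytosis and recycling 2 rose and 5 fell at P24 (5 and 4 relative to the median gene). On the deposited scale that was near the 14.6% and 43.7% of all genes. Myo5b, the motor gene of recycling endosomes (0.41), and Numb, the endocytic adaptor gene that binds NPC1L1 (0.34), rose. Their calls were lost in 6 and 8 of 18 alternatives. Rab11a, a GTPase gene of the recycling compartment, fell from 235 ± 15.9 to 93.3 ± 0.725 TPM (log2 difference -1.32, adjusted p = 1.48e-07), and its effector gene Rab11fip2 fell by 0.92. With rmIl22 limma called 0 of the 13 and voom 0, with 1 at an unadjusted p under 0.05. That was Rab11a, at 144 ± 26.02 TPM against 239 ± 24.6 TPM with PBS (log2 difference -0.73, adjusted p = 0.0608). Its groups did not overlap, as in 21.1% of all genes tested, and the authors' deposited table lists it at -0.67 (adjusted p = 4.38e-04).

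Of 13 chylomicron genes 1 rose and 6 fell at P24 (3 and 6 relative to the median gene). Among all genes 14.6% rose and 43.7% fell on the deposited scale. Dgat1, a triglyceride synthesis enzyme gene, rose by 0.67 (adjusted p = 0.00247). The apolipoprotein genes Apoa4 (11186 ± 2824 to 250 ± 156 TPM, log2 fold change -5.69) and Apoc3 (569 ± 275 to 55.1 ± 18.1 TPM, -3.26) fell most. Apob and Mttp, which carry and load the particle that takes up the SOAT2 product, did not pass (-0.26 and -0.41). Among all 45 pairs, Npc1l1 and Apob had r = 0.92 after removal of the group means and 0.41 before it. Soat2 and Mttp had r = 0.86, and 0.89 after removal. With rmIl22 limma called 0 of the 13 and voom 0, with 6 at an unadjusted p under 0.05. The authors' deposited table lists the lipid droplet coat genes Plin2 at -0.60 (adjusted p = 4.66e-04) and Plin3 at -0.78 (adjusted p = 0.00305), where limma gave adjusted p = 0.0783 and 0.0773.

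Bile acids carry cholesterol to the brush border. Of 9 tested genes of ileal bile acid uptake 5 rose at P24 and 2 fell (5 and 1 relative to the median gene). The deposited scale had 14.6% up and 43.7% down over all genes. Slc10a2, the ileal bile acid importer gene, rose from 9.87 ± 3.93 to 806 ± 82.7 TPM (log2 difference 6.27, adjusted p = 4.25e-10) and Fabp6, a bile acid carrier gene, by 4.90. Abcc2, an apical conjugate pump gene, fell by 3.62. Fgf15, the ileal hormone gene that restrains bile acid synthesis, fell by 1.39 (adjusted p = 0.0222), a call lost in 8 of 18 alternatives (adjusted p = 0.0995 relative to the median gene). With rmIl22, Slc51b, a basolateral bile acid exporter gene, rose by 0.91 (adjusted p = 0.0201) and Abcc2 fell by 1.40 (adjusted p = 0.00769), and limma called none of the other 7. The Slc51b call was lost in 8 of 17 alternatives: no filter, the replicate block, the sex term, and leaving out any library but rmIl22 library 2. The sex term rests on rmIl22 library 1 alone, the only rmIl22 library without Xist, as no PBS library had it. Without PBS library 3 the Abcc2 call was lost, as it was without PBS library 1, with an adjusted p of up to 0.0829. Slc10a2 was 14.8 times higher with rmIl22 in mean TPM (213 ± 167 against 14.4 ± 8.08) with no overlap, as in 21.1% of all genes tested. Its rmIl22 values were 35.7, 237 and 366 TPM in rising order, and its PBS values ran from 5.13 to 19.8 TPM. Slc10a2 did not pass (log2 difference 3.45, adjusted p = 0.0976), while the authors' deposited table lists it at 3.82 (adjusted p = 2.36e-06). All PBS libraries had Gata4, while rmIl22 libraries 1 and 3 were nearly without it. For these bile acid genes IL-22, the position of the tissue and sex thus cannot be told apart.

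Of 13 tested regulators of intestinal sterol genes, 3 rose and 5 fell at P24 (3 and 2 relative to the median gene). Over all genes 14.6% rose and 43.7% fell on the deposited scale. Ppard, a fatty acid receptor gene, rose from 5.16 ± 1.06 to 19.9 ± 3.75 TPM (log2 difference 1.76, adjusted p = 2.35e-06), and Hnf4g, an enterocyte nuclear receptor gene, by 0.53. Gata6, the GATA factor gene of the distal gut, fell from 39.1 ± 7.99 to 24.4 ± 2.44 TPM (-0.64), or by 0.34 relative to the median gene (adjusted p = 0.0349). Ppara fell by 0.63. Gata4 did not pass the filter on low values in the age comparison. With rmIl22 limma called 0 of the 14 tested regulators and voom 0, with 4 at an unadjusted p under 0.05. The authors' deposited table lists Pparg, a lipid-sensing nuclear receptor gene, at 0.82 (adjusted p = 0.00181), where limma gave 0.66 (adjusted p = 0.293).

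The remaining likeness among 15702 genes is a description over 14 libraries. Npc1l1 was closest to 1700017B05Rik (r = 0.94), Pxk (0.92) and Xdh, the xanthine dehydrogenase gene (0.90), and P24 library 2 weighs on these. Abca1 was closest to Ccdc163 (0.91), Chic2 (0.89) and Zfp120 (0.88). Scarb1 was closest to Dtx4 (0.94), Sema3g, a semaphorin gene (0.94), and Hspa12b, a heat shock protein family gene (0.93). Among the genes closest to Soat2 were Btnl2 (0.93) and Eepd1 (0.91). With Spearman's rho in place of r, 0 of the 3 closest genes remained for Npc1l1, 1 for Abcg5 and 2 each for Abca1, Abcg8 and Scarb1.

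Markers of other cells moved with age beside these changes. The counts below stand beside 14.6% up and 43.7% down over all genes. Of 10 enterocyte markers 6 rose and 1 fell. Endothelial markers fell in 6 of 7 (summed 64.5 to 101 TPM at P14 and 42.8 to 50.3 TPM at P24) and fibroblast markers in 5 of 7, smooth muscle markers rose in 2 of 6, adipocyte markers rose in 4 and fell in 1 of 5, and macrophage markers rose in 1 and fell in 3 of 11. The B and plasma cell (3 of 6) and T cell (2 of 4) markers rose. The 3 hepatocyte and pancreas markers tested fell, and the pancreatic genes Cela2a and Prss1 were at 0 at both ages. Of 4 tested markers of the upper small intestine 3 fell. Sums over all 7 were 8092 to 15661 TPM at P14 and 290 to 656 TPM at P24, of which Apoa4 alone had 7774 to 14619 TPM and 113 to 400 TPM. With rmIl22 1 of 11 macrophage and 1 of 2 hepatocyte and pancreas markers fell and limma called no other, though the authors' deposited table lists the enterocyte marker Krt20 at 1.06 (adjusted p = 1.10e-04; limma 0.99, adjusted p = 0.0947). Their part in the members' values was not tested.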

How the data were processed

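Total RNA of whole ileum, depleted of ribosomal RNA, went into libraries that keep the strand, per the labels' protocols. The authors deposited TPM per gene symbol and library, and tables of their own comparisons (log2 fold changes with p-values). Tools in the submitters' processing notes are FastQC 0.11.2, STAR 2.4.0f, HTSeq 0.6.1p1 and DESeq2 1.14, with the build mm10. The annotation release and strand setting used were not given in the sources used here. P14 and P24 columns name the group and a number that is not a label, so libraries bear the column numbers. The 27 symbols turned into dates (at most 0.0776% of a library's TPM) were left out.

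TPM were tested with limma 3.58.1 in R 4.3.3 (intensity trend, log2(TPM + 1), groups of the comparison only, two-sided). Genes needed a TPM of at least 1 in as many libraries as the smaller group, or in 3 for the difference of effects. Benjamini-Hochberg adjustment ran over every gene tested, a call needed an adjusted p under 0.05, and p-values measure only the spread between these libraries. Whole reads (within 0.01) were recovered from TPM for all 31189 genes with any value, and gave depth and a voom alternative. The fit was tested on simulated data. Ratios and exact permutation tests were made in Python 3.11.15 with SciPy 1.17.1. Gene positions are from GENCODE vM21 (GRCm38, the same assembly as mm10).

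The 6 members and the 7 pathway and 10 marker lists were chosen with earlier results of these data known. Genes named beside the members are, from each pathway list, up to 2 called genes with the largest rise and 2 with the largest fall in each of the age and IL-22 comparisons, and the 3 genes most like each member by Pearson r, apart from an item that is not reported here. Abcg1, Mylip, Nr1h3, Nr1h2, Srebf2, Npc1, Npc2, Lipa, Apob, Mttp, Gata4, Vil1 and Epcam were named for their role after values were seen. Plin2, Plin3, Pparg and Krt20 were named because the authors' deposited table lists them.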

Additional observations from a re-analysis of the deposited data

Results flagged for a closer look

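The Npc1l1 level of P24 library 2, 348 TPM, stood apart from the other P24 libraries (124, 132 and 161 TPM). Its gap to the nearest of them was 0.834 of the range of the group, above Dixon's 95% critical value for 4 libraries. It was the 1 value singled out in 14 groups checked (6 genes and the Abcg5 to Abcg8 ratio at P14 and at P24), and chance marks about 1 in 20 groups. Apob, the structural protein gene of chylomicrons, was also highest in this library within P24, at 1062 TPM against 317 to 459 TPM, and this gene was picked after its values were seen. Depth was the lowest of all libraries there, 35.6 M reads.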

How the results depend on the processing

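Members called at P24 against P14 numbered 4, with 3 to 4 when a library was left out and 2 with no filter; calls over all genes (8546) ran from 7102 to 8528 with a library left out. For rmIl22 against PBS, 0 members became 0 to 1 with a library left out and 2 with Gata4-bearing libraries only (Gata4 of at least 5 TPM, which leaves rmIl22 library 2 alone against 3 PBS libraries and so tests that library, not IL-22), and 389 genes became 4 to 1329 (4 without PBS library 3, 12 without PBS library 1, 1329 without rmIl22 library 2), 98 with no filter, 1058 in the fit of all 14 libraries, 122 with a sex term and 1804 with that 1 library. For PBS against P14, 1 member became 0 to 1 with a library left out and 0 with no filter, quantile normalisation or the fit of all libraries, and 640 genes became 340 to 860, 125 (no filter), 1289 (equal medians), 390 (all libraries), 1753 (voom) and 406 (Gata4-bearing). For the difference of effects, 1 member became 0 to 4 with a library left out, 0 with no filter and 2 with equal medians or voom, and 3734 genes became 2400 to 4997. The Abcg5 to Abcg8 difference of 0.258 ran from 0.237 to 0.275 with a library left out (exact permutation p = 0.0571, the smallest then possible) and was 0.253 without P14 libraries 4 and 5 (exact permutation p = 0.133); with rmIl22 it ran from -0.021 to 0.023. The sex term, voom and the Gata4 settings were chosen after seeing the data. No called member reversed, and of 26 named calls 20 held in all alternatives and 0 reversed. PBS and rmIl22 numbers were not taken as pairs. Deviations of same-numbered libraries had correlations of -0.0673, 0.333 and -0.0489, and of the 3 PBS libraries only library 2 correlated best with its own number. So few libraries cannot exclude pairing. With the replicate number as a block 280 genes and 0 members were called (Soat2 adjusted p = 0.179). The block lowered the SE of Abca1 (0.34 to 0.15), Abcg5 (0.30 to 0.16), Abcg8 (0.31 to 0.15) and Soat2 (0.33 to 0.28). It raised that of Npc1l1 and Scarb1. The P14 and P24 columns carry no label number, so no block was fitted there. edgeR and TMM scaling were not run, since the values are TPM. The cause of these differences was not tested. Scarb1 had the fewest reads of the 6 members, 301 to 513 in a library.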
